A study of Mus musculus with 6 samples.

Results

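Adhesion G protein-coupled receptors are surface proteins with a long extracellular region and a 7-helix membrane domain, and in mouse most of their genes carry a symbol that starts with Adgr. The members described here are the protein-coding rows of the deposited gene table with such a symbol, as annotated in GENCODE M21. They number 27 of 21897 protein-coding gene IDs and of 55401 gene IDs in all. The study measured RNA in 6 libraries, each made from 2000 sorted cells of mouse marrow, with 3 libraries per group and the genotype wild type throughout. ESC-derived cells were sorted for Sca-1 and against lineage markers and c-Kit (Lin-Sca-1+c-Kit-), per the labels, and came from the marrow of primary recipients, which had been given CD144-positive cells made by differentiation of embryonic stem cells. LSK cells were sorted for both Sca-1 and c-Kit and against lineage markers (Lin-Sca-1+c-Kit+) and came from the marrow of untreated C57BL/6 mice aged 6 to 8 weeks, the fraction that holds haematopoietic stem and multipotent progenitor cells. The labels name no donor marker in the ESC-derived gate, so the share of the recipients' own cells among them is not known. Neither the strain and age of the recipients nor the stem cell line is given. The labels do not say that the libraries came from separate animals, so the p-values measure the spread between these libraries, which may be technical. The groups differ in gate, origin and host at once, and these cannot be told apart.

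Most adhesion receptors are cut during their synthesis at a site just outside the membrane, and the 2 fragments stay attached to each other. When the outer fragment is pulled off by a bound partner, the freed end of the membrane fragment acts as a tethered agonist and switches on G proteins, often those that act on the GTPase RhoA. In blood, Adgrg1 is known from haematopoietic stem cells, Adgre5 from leukocytes at large and Adgre1 from macrophages.

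Total estimated counts ran from 46299936 to 49269286 in the ESC-derived libraries and from 41580006 to 44481252 in the LSK libraries, and levels below are CPM, counts scaled to a common library total with TMM factors. The gates were checked on marker genes. Kit, the gene of the c-Kit gate, had 0.0476 to 0.127 CPM in the ESC-derived libraries, against 42.9 to 55.5 CPM in the LSK libraries, and all 10 listed stem and progenitor genes were lower in ESC-derived cells. The 12 listed T cell genes summed to 15740 to 16430 CPM in the ESC-derived libraries and to 151 to 187 CPM in the LSK libraries, and all 12 were higher in ESC-derived cells. Of 7 listed NK cell genes the 5 tested rose as well. Klra8, not tested, had 0 counts in each ESC-derived library and 0, 8 and 46 in LSK replicates 1 to 3. Klra4 had 0 counts in each library. Of 7 B cell genes 4 fell, with sums of 179 to 215 CPM in the ESC-derived libraries against 11930 to 16150 CPM in the LSK libraries. These values go against the lineage-negative labels: Cd3d, part of the CD3 complex of T cells, averaged 2262 ± 223 CPM in the ESC-derived group, and Ighm, the IgM heavy chain, averaged 13466 ± 2087 CPM in the LSK group. The part of such cells in the results below was not tested. LSK replicate 2 stood apart in another way: it lay between replicates 1 and 3 in 61.4% of the 16211 tested genes, against 18.0 to 34.8% for each of the other 5 libraries within its own group. It lay between them in 9 of the 12 tested adhesion receptor genes. Values without it are given with the results.

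Of the 27 adhesion receptor genes, 23 had counts in at least 1 library and 4 (Adgrf1, Adgrf2, Adgrf4 and Adgrg2) had 0 in all 6. At 1 CPM or more, 8, 9 and 8 genes were detected in ESC-derived replicates 1 to 3, against 10, 10 and 8 genes in LSK replicates 1 to 3. The filter on low counts left 12 genes, of which 4 rose, 5 fell and 3 did not pass (edgeR quasi-likelihood test, Benjamini-Hochberg adjusted over all 16211 tested genes, threshold 0.05). Over all tested genes 30.0% passed, 14.8% as higher and 15.2% as lower in ESC-derived cells. The groups did not overlap in 11 of the 12 genes, against 49.8% of all tested genes. A gene with reads in 1 group only passes the filter through that group, so these counts describe the 12 genes and not the family. The median log2 fold change (ESC-derived minus LSK) was -3.13 over the 12 genes and -0.07 over all tested genes. Without LSK replicate 2, 13 adhesion receptor genes were tested, of which 3 rose and 4 fell. In that fit 2716 of all 17030 tested genes passed.

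**Figure D1:**
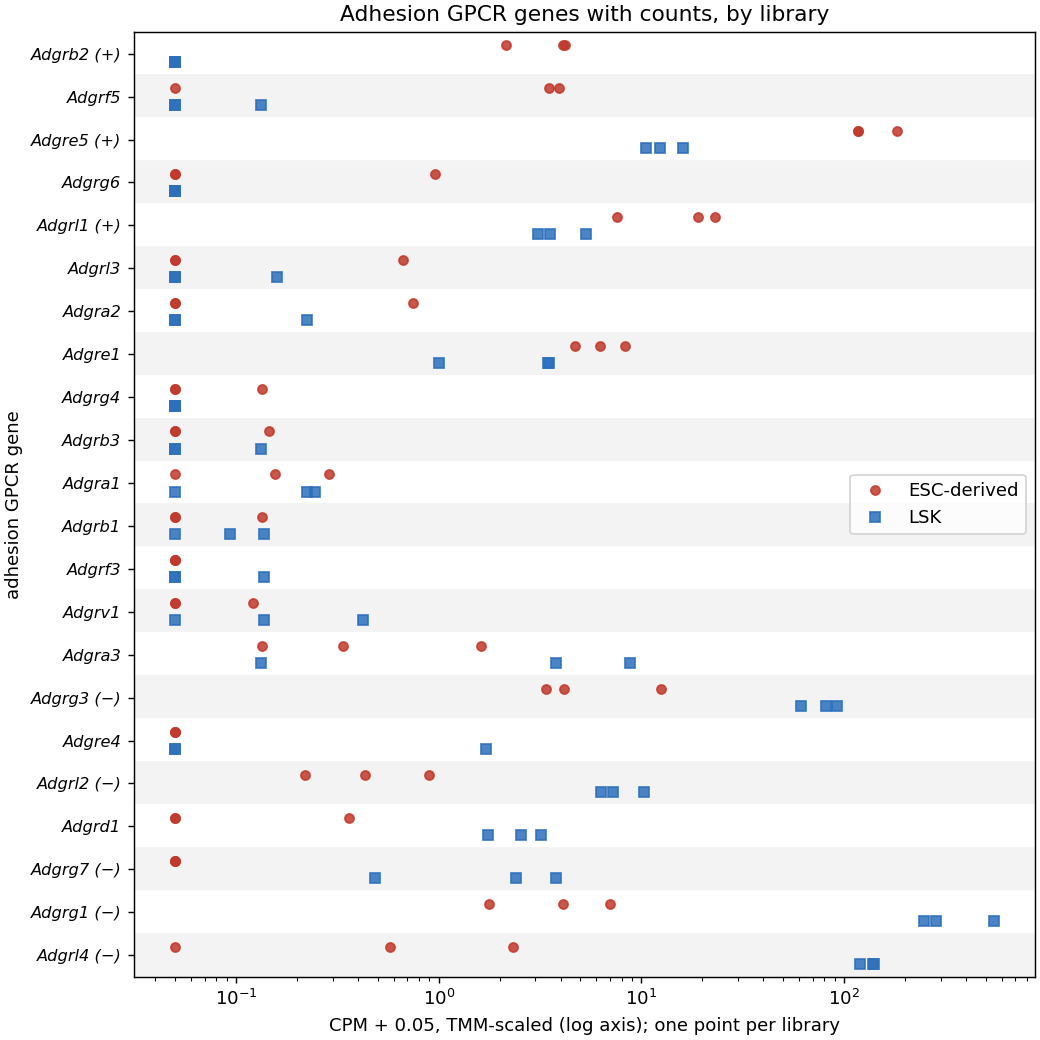
CPM + 0.05 (log axis) of 22 adhesion receptor genes with counts, one point per library, circles for ESC-derived and squares for LSK cells, with + and − for genes that passed as higher or lower in ESC-derived cells. Adgre5 lies far right for ESC-derived cells, and Adgrg1, Adgrl4 and Adgrg3 for LSK cells.

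Adgre5 was the adhesion receptor gene with the highest level in ESC-derived cells. It encodes CD97, a leukocyte receptor whose outer part binds CD55 and whose level on lymphocytes rises with activation. It is on mm10 chromosome 8, 83723251 to 83741326, minus strand (ENSMUSG00000002885). Adgre5 had 117, 183 and 117 CPM in ESC-derived replicates 1 to 3, against 10.5, 12.3 and 15.9 CPM in LSK replicates 1 to 3. Each ESC-derived library was above each LSK library, and replicate 2 was the highest of its group. The log2 fold change was 3.43 ± 0.27 (SE, edgeR adjusted p = 0.000247), and over 16 alternatives the adjusted p ran from 4e-36 to 0.00282. Its exons share 895 bases, 23.8% of their length, with exons of Ddx39, an RNA helicase gene on the opposite strand. Ddx39 averaged 763 ± 9.25 CPM in the ESC-derived group and 181 ± 21.8 CPM in the LSK group (each ± here and below is an SD over the 3 libraries unless marked SE). The kit does not mark strand, so reads of the shared bases cannot be assigned to either gene, and the part of Ddx39 in the Adgre5 values was not tested. The T cell list, given above, moved in the same direction as Adgre5, and its part was not tested either. In bulk RNA, fewer cells of a type and less RNA per cell cannot be told apart, which holds for each difference below.

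Adgre1 encodes the F4/80 antigen, the classic surface marker of mouse macrophages, which eosinophils carry too. It had 4.66, 6.19 and 8.22 CPM in the ESC-derived libraries, against 3.44, 3.41 and 0.958 CPM in the LSK libraries. The groups did not overlap, but the test was not passed, at a log2 difference of 1.29 ± 0.64 (SE) and an edgeR adjusted p of 0.186 (0.0931 to 0.314 over 16 alternatives). The 10 listed macrophage and monocyte genes, 1 of which rose and 1 fell, summed to 62.9 to 134 CPM in the ESC-derived group and to 87.6 to 97.4 CPM in the LSK group. Of 7 tested eosinophil genes 4 rose, and the 8 listed genes summed to 99.0, 1495 and 204 CPM in ESC-derived replicates 1 to 3, against 54.2 to 56.5 CPM in LSK cells. ESC-derived replicate 2 was thus by far the highest for eosinophil genes, and replicate 3 was the highest for Adgre1. Epx, an eosinophil peroxidase, was at 0 in each LSK library. The part of these cells in the Adgre1 values was not tested. Adgre4, a receptor of mouse myeloid cells and the remaining E member, had 81 counts in LSK replicate 1 and 0 in the other 5 libraries, and the filter removed it.

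Adgrg1 and Adgrg3, receptor genes that lie side by side on the plus strand of chromosome 8 with 3.5 kb between them, both fell. Adgrg1 (94974751 to 95014217, ENSMUSG00000031785) encodes GPR56, which binds collagen III and transglutaminase 2 and marks haematopoietic stem cells. Adgrg3 (95017692 to 95045250, ENSMUSG00000060470) encodes GPR97, a receptor best known from granulocytes. The bases just before their RefSeq starts are printed here because both genes were among the 3 with the highest levels per length of the family in LSK cells. The bases were copied from RefSeq promoter windows (GRCm38.p6, the same build as mm10), which were found for 20 of the 27 genes. Of the other genes near the pair only Drc7 is described, below.

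Adgrg1, first RefSeq start, chr8:94976859-94977108, plus strand: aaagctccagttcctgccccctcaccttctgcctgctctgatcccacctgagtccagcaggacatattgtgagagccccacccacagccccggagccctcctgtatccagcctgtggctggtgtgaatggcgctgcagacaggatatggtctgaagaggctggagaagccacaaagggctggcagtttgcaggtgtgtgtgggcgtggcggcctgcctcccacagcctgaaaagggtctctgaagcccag
Adgrg1, second RefSeq start, chr8:94984149-94984398, plus strand: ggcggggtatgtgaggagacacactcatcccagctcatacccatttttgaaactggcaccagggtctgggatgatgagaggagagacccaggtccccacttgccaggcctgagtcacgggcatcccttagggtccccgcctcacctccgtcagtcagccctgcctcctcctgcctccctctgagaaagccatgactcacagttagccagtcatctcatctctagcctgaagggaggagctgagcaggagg
Adgrg3, chr8:95017442-95017691, plus strand: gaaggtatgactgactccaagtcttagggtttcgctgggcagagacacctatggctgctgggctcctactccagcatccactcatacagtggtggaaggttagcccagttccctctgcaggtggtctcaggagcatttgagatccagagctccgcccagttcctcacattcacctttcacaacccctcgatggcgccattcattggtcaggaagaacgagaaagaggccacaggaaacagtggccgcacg

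Capitals would mark matches to 4 short motifs searched on both strands, CCGGAAG for ETS factors, TGTGGT for RUNX factors, AGATAA for GATA factors and the E-box CAGCTG, and the windows printed held none. Of 32851 mouse windows of the same 250 bases, 14% held the RUNX motif, 6.91% the ETS motif, 9.99% the GATA motif and 13% the E-box. The absence of a match says only that these letters are not in these windows.

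Adgrg1 had 6.95, 1.72 and 4.03 CPM in the ESC-derived libraries, against 249, 283 and 546 CPM in the LSK libraries. LSK replicate 3 held 50.1% of the LSK counts of Adgrg1, and the lowest LSK library was still far above the highest ESC-derived one. Its log2 fold change was -6.41 ± 0.63 (SE, edgeR adjusted p = 0.00065, range over 16 alternatives 1.75e-42 to 0.00542), with -6.96 without ESC-derived replicate 1. Adgrg3 had 12.5, 4.11 and 3.32 CPM in the ESC-derived libraries, against 92.4, 81.0 and 61.5 CPM in the LSK libraries. ESC-derived replicate 1 was the highest of its group for both Adgrg1 and Adgrg3. The log2 fold change of Adgrg3 was -3.56 ± 0.55 (SE, edgeR adjusted p = 0.0041, range over 16 alternatives 6.06e-12 to 0.0176), with -4.40 without ESC-derived replicate 1. The neutrophil list ran the other way, with 6 of 8 genes higher and sums of 2253 to 4353 CPM in ESC-derived cells against 1065 to 1180 CPM in LSK cells. ESC-derived replicate 1 had the highest sum of its group. From that list Mpo, a granule enzyme of immature myeloid cells, averaged 82.4 ± 68.3 CPM in the ESC-derived group and 673 ± 50.2 CPM in the LSK group and did not pass (edgeR adjusted p = 0.0699). The part of neutrophils in the Adgrg3 values was not tested, nor was that of the stem and progenitor genes, which summed to 0.428 to 8.34 CPM in the ESC-derived libraries against 2113 to 2211 CPM in the LSK libraries, in the values of Adgrg1.

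Drc7, a gene of the motile cilium and the nearest protein-coding neighbour downstream of Adgrg3, had 0 counts in each ESC-derived library and averaged 6.18 ± 1.64 CPM in the LSK libraries. It fell too (edgeR adjusted p = 0.00238).

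Another G member, Adgrg7, encodes GPR128, a receptor of gut epithelium, on chromosome 16 (56724609 to 56795855, minus strand). It had 0 counts in each ESC-derived library, against 3.75, 2.36 and 0.435 CPM in the LSK libraries. Set against 12 counts over a group, the floor used for a group at 0, it was lower by at least 24.3-fold in ESC-derived cells (edgeR adjusted p = 0.0162, range over 14 alternatives 1.08e-05 to 0.0727). The call was lost without LSK replicate 1, which held 58.7% of its counts (edgeR adjusted p = 0.053), and without LSK replicate 2 (edgeR adjusted p = 0.0663). Adgrg6, a receptor needed for myelin formation by Schwann cells, had 38 counts in ESC-derived replicate 1 and 0 in the other 5 libraries, and Adgrg4 had 4 counts in ESC-derived replicate 3 alone. Neither was tested.

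Within the L group, Adgrl4 and Adgrl2 were low in ESC-derived cells and Adgrl1 was high. Adgrl4 encodes ELTD1, best known from endothelium, where it takes part in vessel growth (chromosome 3, 151437887 to 151545086, plus strand). It had 2.28, 0 and 0.528 CPM in the ESC-derived libraries, against 141, 139 and 119 CPM in the LSK libraries. The LSK values were tight, and 79.3% of the ESC-derived counts came from replicate 1. Its log2 fold change was -7.15 ± 1.17 (SE, edgeR adjusted p = 0.00493, range over 16 alternatives 5.2e-05 to 0.0223), with -8.91 without ESC-derived replicate 1 and -6.57 without ESC-derived replicate 2. Of 9 tested endothelial genes 4 fell and 0 rose, and the 10 listed summed to 30.2 to 63.9 CPM in the ESC-derived group and to 164 to 186 CPM in the LSK group. Those that fell were Pecam1, Esam, Emcn and Tie1. Among those that did not pass, Stab2 averaged 7.42 ± 7.76 CPM in the ESC-derived group and 1.39 ± 0.644 CPM in the LSK group. Esam averaged 3.22 ± 2.11 CPM in the ESC-derived group and 45.0 ± 10.5 CPM in the LSK group. Cdh5, which defines endothelium, had 0 counts in the ESC-derived libraries and 0, 0 and 8 counts in the LSK libraries. The part of endothelial cells in the Adgrl4 values was not tested. The stem and progenitor genes, given above, were lower in ESC-derived cells too, and their part was not tested either.

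Adgrl1 and Adgrl2 encode latrophilins, receptors known from synapses, where they bind teneurins and FLRT proteins. Adgrl1 lies on chromosome 8 too (83900105 to 83941954, plus strand), 158.8 kb from Adgre5. It had 7.49, 18.9 and 23.0 CPM in the ESC-derived libraries, against 3.51, 5.30 and 3.05 CPM in the LSK libraries. ESC-derived replicate 1 lay nearest to the LSK values, without overlap. Its log2 fold change was 2.06 ± 0.51 (SE, edgeR adjusted p = 0.0224, range over 16 alternatives 0.000545 to 0.0764). The call was lost without any one of ESC-derived replicates 2 and 3 and LSK replicates 1, 2 and 3, where edgeR adjusted p-values were 0.0645, 0.063, 0.0758, 0.0573 and 0.0764. Adgrl2 had 0.381, 0.850 and 0.169 CPM in the ESC-derived libraries, against 10.3, 6.26 and 7.23 CPM in the LSK libraries. Its log2 fold change was -4.08 ± 0.77 (SE, edgeR adjusted p = 0.00828, range over 16 alternatives 7.16e-08 to 0.0381), with -4.84 without ESC-derived replicate 2. Adgrl3 had counts in replicate 2 of each group alone, 26 in the ESC-derived and 5 in the LSK library.

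**Figure D2:**
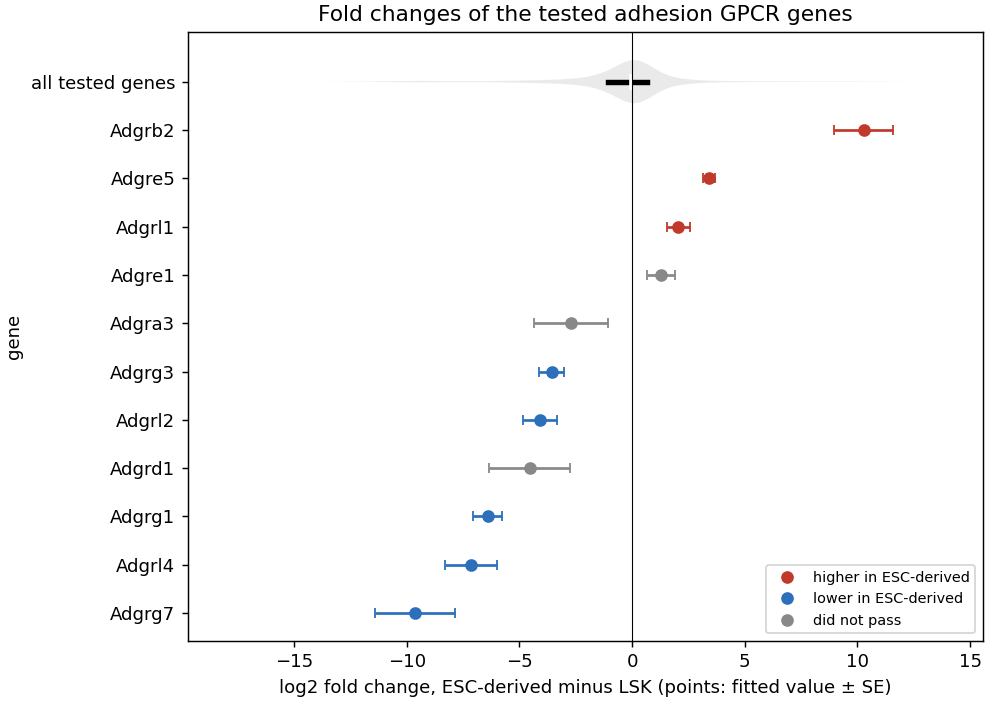
Fitted log2 fold change, ESC-derived minus LSK, with its SE for 11 tested adhesion receptor genes, right of zero where higher in ESC-derived cells, with the distribution of all 16211 tested genes in the top row (black bar from the lower to the upper quartile, white mark at the median). Adgrb2 and Adgrg7 have 0 counts in 1 group, so their fitted values depend on the prior count and are no measure of size.

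Among the remaining subfamilies the levels were low. Adgrb2 encodes BAI2, a receptor best known from brain, on chromosome 4 (129984870 to 130022633, plus strand). It had 4.07, 2.10 and 4.16 CPM in the ESC-derived libraries and 0 counts in each LSK library, at least 40.5-fold higher against the floor (edgeR adjusted p = 0.00515, range over 16 alternatives 2.45e-09 to 0.0554). Adgrb1, the engulfment receptor BAI1, and Adgrb3, which binds C1q-like proteins at synapses, stayed under 0.1 CPM in each library. Adgrd1, which encodes GPR133 and raises cyclic AMP, had 0.309, 0 and 0 CPM in the ESC-derived libraries, against 1.69, 2.50 and 3.16 CPM in the LSK libraries. The groups did not overlap, and the test was not passed, at a log2 difference of -4.54 ± 1.78 (SE) and an edgeR adjusted p of 0.104 (0.0123 to 0.222 over 16 alternatives). All 13 ESC-derived counts were in replicate 1, and without it the gene passed as lower. It passed as lower with the DESeq2 Wald test, with limma-voom and with values divided by 4 as well. Adgra3, which encodes GPR125, had 0.285, 1.56 and 0.0845 CPM in the ESC-derived libraries, against 0.0825, 3.72 and 8.71 CPM in the LSK libraries. It was the tested member whose groups overlapped, with LSK replicate 1 at the level of the lowest ESC-derived library (edgeR adjusted p = 0.278, range over 16 alternatives 0.14 to 0.633).

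Adgrf5 encodes GPR116, a receptor of lung epithelium and endothelium that limits surfactant. It had 0, 3.45 and 3.87 CPM in the ESC-derived libraries and 4 counts in LSK replicate 1 alone. The ratio of summed counts was 87.5 (95% counting interval 15.2 to 3486). The filter of the main fit removed it. With no filter on low counts it was tested and did not pass. Among the alternatives it passed as higher only where ESC-derived replicate 1, the ESC-derived library at 0, was left out, which says nothing of a rise. Adgra2, a receptor needed for vessel growth in the brain, had 33 counts in ESC-derived replicate 3 and 8 in LSK replicate 2. Adgra1, Adgrf3 and Adgrv1, a receptor of hair cells in the inner ear, were among the untested genes too. Apart from Adgrf5, the 10 untested genes with counts reached at most 1.67 CPM in any library, and 9 of them stayed under 1 CPM in each.

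Levels can be set beside each other between genes only per length, here as mean CPM per kb of merged exons. On that scale Adgre5 stood at 37.0 in ESC-derived cells, rank 1 of the 27, and at 3.43 in LSK cells, rank 4. Adgrg1 stood at 0.781 in ESC-derived cells, rank 6, and at 66.3 in LSK cells, rank 1. Adgrl4 stood at 0.204 and Adgrg3 at 0.960 CPM per kb in ESC-derived cells, against 29.0 and 11.3 in LSK cells, where they were ranks 2 and 3. Adgre5 alone held 64.2, 75.4 and 65.6% of the summed CPM per kb of the family in ESC-derived replicates 1 to 3, against 2.87, 3.21 and 2.97% in LSK replicates 1 to 3. Adgrg1, Adgrl4 and Adgrg3 together held 7.4, 1.4 and 2.8% in the ESC-derived libraries, against 92.7, 92.9 and 94.9% in the LSK libraries. A few genes thus held most of the family's transcripts in each library, and they were different ones in the 2 groups. LSK replicates differed in the share of Adgrg1 alone, which was 47.3, 51.5 and 70.5%.

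**Figure D3:**
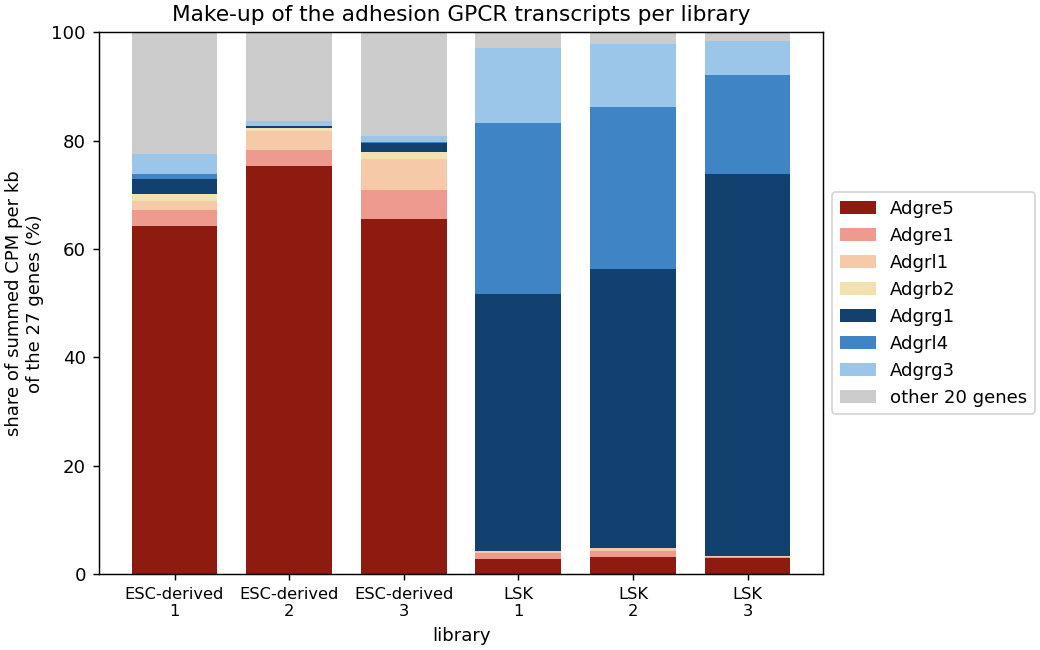
Share of the summed CPM per kb of the 27 adhesion receptor genes held by each of 7 genes and by the other 20, per library (stacked bars, percent), ESC-derived libraries left and LSK libraries right. Adgre5 fills most of the ESC-derived bars, and Adgrg1, Adgrl4 and Adgrg3 most of the LSK bars.

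Genes that work with these receptors were counted list by list, to be read against the 14.8% of all tested genes that passed as higher and the 15.2% that passed as lower. No list was tested as a whole, and several counts lie near those shares. The 3 Celsr genes encode adhesion receptors of cell polarity under another symbol. Celsr1 averaged 17.1 ± 8.46 CPM in the ESC-derived group and 3.22 ± 0.625 CPM in the LSK group and rose (log2 fold change 2.41 ± 0.45 SE, edgeR adjusted p = 0.00806). Celsr2 did not pass, and Celsr3 was not tested. Of 18 tested ligands and surface partners 3 rose, 4 fell and 11 did not pass, with a median log2 fold change of -0.87. Beside the genes described next, Reck rose and Col4a1 fell. Thy1, a surface protein that binds CD97, rose, with 228 ± 54.9 CPM in the ESC-derived group and 8.47 ± 2.23 CPM in the LSK group. Itgb1, the integrin beta1 chain, rose too, with 446 ± 22.5 CPM in the ESC-derived group and 58.3 ± 7.61 CPM in the LSK group. The tetraspanins Cd81 and Cd9, which form complexes with GPR56, fell. Cd81 averaged 23.2 ± 4.08 CPM in the ESC-derived group and 316 ± 34.6 CPM in the LSK group, and Cd9 averaged 25.1 ± 9.84 CPM in the ESC-derived group and 54.2 ± 8.20 CPM in the LSK group. Without any one of LSK replicates 1, 2 and 3, 2 partners fell. Cd55, the ligand of CD97, averaged 7.99 ± 3.61 CPM in the ESC-derived group and 14.8 ± 2.48 CPM in the LSK group and did not pass (edgeR adjusted p = 0.152).

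Of 13 tested G protein alpha subunits 2 rose, 4 fell and 7 did not pass, Gnai3 among them, and the share that rose was close to that over all tested genes. Gnai2, the main inhibitory alpha subunit of leukocytes, averaged 589 ± 36.8 CPM in the ESC-derived group and 454 ± 15.8 CPM in the LSK group and rose (log2 fold change 0.37 ± 0.09 SE, edgeR adjusted p = 0.023). Gna15 rose as well, and Gnas, the stimulatory subunit through which GPR133 acts, fell to 88.6 ± 4.99 CPM in ESC-derived cells, against 260 ± 46.0 CPM in LSK cells. Gna13, which links adhesion receptors to RhoA, averaged 73.4 ± 12.2 CPM in the ESC-derived group and 67.5 ± 4.38 CPM in the LSK group and did not pass (edgeR adjusted p = 0.642). Only 1 subunit rose when ESC-derived replicate 1 or LSK replicate 1, 2 or 3 was left out, when libraries were scaled by their totals, or with the replicate number as a block. With the block and without LSK replicate 2, 1 subunit fell, and 2 fell when LSK replicate 3 was left out. Of 12 tested beta and gamma subunits 3 rose, Gng2 among them, 3 fell and 6 did not pass, Gng10 among them, with Gnb1 at 256 ± 35.6 CPM in the ESC-derived group and 131 ± 12.8 CPM in the LSK group and Gng5 at 218 ± 21.8 CPM in the ESC-derived group and 357 ± 24.4 CPM in the LSK group.

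Downstream of the G proteins, Rhoa and Arhgef1, which loads it with GTP in leukocytes, rose. Arhgef1 averaged 210 ± 15.6 CPM in the ESC-derived group and 101 ± 5.64 CPM in the LSK group, and Rhoa averaged 296 ± 31.8 CPM in the ESC-derived group and 169 ± 17.7 CPM in the LSK group. Of the 7 genes of that list 1 fell, Arhgef11. That call was lost without ESC-derived replicate 1, without LSK replicate 1, 2 or 3, with no filter on low counts and with the replicate block, so that 0 genes of the list fell. Akap13 and Rock1 did not pass. Among 7 receptor kinases and arrestins, 2 rose and 2 fell. Of the most abundant kinases, Grk2 rose and Grk6 did not pass. The arrestins, which end receptor signalling, went in opposite directions, with Arrb2 at 31.7 ± 8.57 CPM in the ESC-derived group and 13.4 ± 0.707 CPM in the LSK group and Arrb1 at 1.41 ± 0.853 CPM in the ESC-derived group and 19.1 ± 6.12 CPM in the LSK group. In that list 1 gene rose when ESC-derived replicate 3 or LSK replicate 1 was left out, when libraries were scaled by their totals or with the replicate block, and 0 rose when LSK replicate 2 was left out. Of 8 Elmo, Dock and Rac genes, the module that BAI1 uses for engulfment, 3 rose and 1 fell, and Elmo1 and Dock2 did not pass. Rac1 averaged 349 ± 40.5 CPM in the ESC-derived group and 72.3 ± 2.85 CPM in the LSK group. Rac2, the Rac GTPase of blood cells, averaged 3295 ± 290 CPM in the ESC-derived group and 835 ± 33.7 CPM in the LSK group. Dock1 fell, and without LSK replicate 1 or 2 that list had 0 falls, while it had 2 when libraries were scaled by their totals or with the DESeq2 Wald test.

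**Figure D4:**
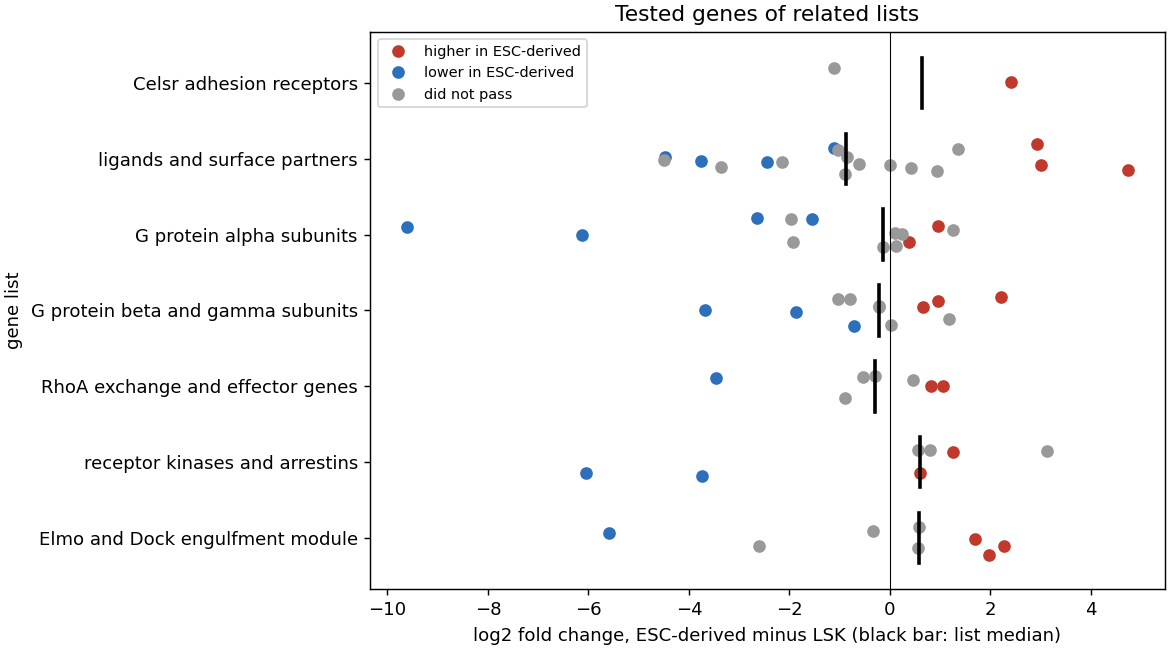
Fitted log2 fold change, ESC-derived minus LSK, of the tested genes in 7 lists of related genes, coloured by call, with a black bar at the median of each list. In 6 of the 7 lists genes lie on both sides of zero among those that passed.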

How the data were processed

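RNA of sorted cells was made into cDNA with the SMART-Seq v4 kit, which does not mark strand, and into libraries with Nextera XT, per the labels' protocols. HISAT, StringTie and the build mm10 are listed without versions or roles, per the submitters' processing notes. The authors deposited estimated counts, whole and unscaled, in 1 row for each Ensembl ID, and the step that made them is not given in the sources used here. In each library 40.1 to 47.2% of values from 1 to 20 were divisible by 4, so 4 counts were taken as 1 fragment. The floor is 12 counts over a group, and intervals and floors cover counting error only. The header holds the names of the 6 value columns in a single field, and columns were assigned from the order of those names. Of 55401 gene IDs, 55141 matched GENCODE M21.

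Genes were filtered with filterByExpr, scaled with TMM and tested with edgeR 4.0.16 (R 4.3.3, quasi-likelihood F test, robust, two-sided, no replicate block). Each SE is the size of the log2 fold change over the root of F. A group total at or under the floor gives a ratio of sums with an exact interval or, at 0, a bound. Alternatives used DESeq2 1.42.0 and limma 3.58.1, other scalings and filters, values divided by 4, a replicate block, and leaving out single libraries. Genes described in full passed the test, averaged 5 CPM or more in a group, or were at or under the floor in 1 group and averaged 1 CPM or more in the other. Adgrd1, Adgra3 and the other low members are given so that each member is accounted for. Related lists name up to 4 tested genes by level, and Cd55, Reck, Col4a1, Ddx39, Gna13, Arhgef11, Celsr3, Dock1, Mpo, Drc7 and the marker genes were named after their values were seen. Of the genes this rule names, 1 adhesion receptor gene is not reported here, although counts and medians include it. The members and lists were chosen with earlier results of these data known.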

Additional observations from a re-analysis of the deposited data

How the results depend on the processing

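The calls of Adgre5, Adgrg1, Adgrg3, Adgrl2 and Adgrl4 kept their direction and passed under each of 16 alternatives, and no tested adhesion receptor gene changed direction in any of them. Over all genes, 4861 passed, 2395 higher and 2466 lower, and leaving out 1 library at a time gave 2716 to 4603 genes, 1466 to 2163 higher and 1250 to 2440 lower. The lowest of these came without LSK replicate 2. For the adhesion receptors the same gave 7 to 11 calls, 3 to 5 higher and 4 to 6 lower. The replicate number as a block gave 3220 genes, 1488 of them lower, and 2 higher and 4 lower adhesion receptor genes, with Adgrb2, Adgrl1 and Adgrg7 not passing. Deviations of same-numbered libraries correlated at 0.011 to 0.045, under the 0.1 taken as pairing, although each of the 6 libraries correlated best with its own number. With library totals only the median log2 fold change of all genes was -0.32, against -0.07, and the calls of the 12 genes were the same. The stricter filter and values divided by 4 did not test Adgrg7. Of the 13 adhesion receptor genes under 1 CPM in each library, 4 had 0 counts and the filter removed the other 9. With no filter these were tested too, and the adhesion receptor genes called were the same as with it.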
